A study of Mus musculus with 12 samples.

Results

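Translation efficiency (TE), the amount of an mRNA on polysomes relative to its amount in total mRNA, was compared between neural stem cells (NSCs) in high and in low folic acid. The contrast was the polysome-to-total ratio of a gene in HF minus that in LF on the log2 scale, which used 8 of the 12 libraries of the series and could be tested for 14421 of 43432 listed genes, 13004 of them protein-coding. The cells were wild-type (WT) NSCs from the subventricular zone of the lateral ventricles of male C57BL/6 mice aged 6 to 8 weeks, grown on poly-ornithine and laminin with the growth factors EGF and bFGF. For 4 days the medium held 80 µM (HF), 10 µM (MF) or 1.5 µM (LF) folic acid, where LF medium was mixed from DMEM without folic acid and F12 medium that carries it, so no group was free of folic acid. Cycloheximide was given before lysis to hold ribosomes in place, the polysome part of a sucrose gradient was pooled, and poly(A) RNA was selected from both kinds of sample. Each of the 6 groups had 2 libraries labelled as biological replicates. The labels do not say that these came from separate animals or cultures, so p-values measure only the spread between these libraries.

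An mRNA that is being translated carries several ribosomes and sediments deep in a sucrose gradient, whereas an mRNA that is stored or blocked stays near the top. Cells adjust this loading for whole classes of mRNA: mRNAs of ribosomal proteins, which start with a run of pyrimidines, answer to the kinase mTOR, and the mRNA of ATF4, the transcription factor of the amino acid response, is read best when the initiation factor eIF2 is phosphorylated. Folate carries the single-carbon units for purine, thymidylate and methionine synthesis, and so feeds both nucleotide supply and the methylation of RNA, DNA and protein in dividing cells such as NSCs.

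Polysome libraries held 25924042 and 26269399 counts in HF and 24821567 and 24193468 in LF. Total mRNA libraries held 23089647 and 20701742 counts in HF and 21718689 and 23593252 in LF. The second polysome library of LF stood apart from the rest. The 2 LF polysome libraries differed by more than 2-fold in 22.0% of genes, whereas HF polysome libraries did so in 4.78% and total mRNA libraries of a dose in 2.82% to 3.25%. Mitochondrial mRNAs took 0.578% and 0.299% of polysome counts in HF, and 0.488% and 0.943% in LF. The spread of the LF polysome pair entered every test below. The called genes and many lists are therefore also given without polysome LF replicate 2 or without replicate 1. In those fits the 1 remaining LF polysome library was assumed to vary like the other groups. NSC genes were present in every library, with 21 of the 22 listed symbols tested. Of 11 microglial markers, 6 (Aif1, Cx3cr1, Trem2, Tyrobp, C1qa and C1qc) had no count in the 8 libraries. Tmem119, also on that list, was at 3.58 to 16.0 CPM and P2ry12 at 0.154 to 3.03 CPM, and these 2 were the ones tested.

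Between HF and LF, 14 of 14421 genes were called for TE (0.0971%) by edgeR's quasi-likelihood test, at a Benjamini-Hochberg adjusted p under 0.05 and a change of more than 1.2-fold, 11 higher in HF (0.0763%) and 3 lower (0.0208%). Of these, 9 were protein-coding. Among those that rose were the ribosomal protein mRNA Rplp1, the tryptophanyl-tRNA synthetase mRNA Wars, Uqcr11 of the respiratory chain, Elob of the elongin complex, and the contractile and elastic fibre mRNAs Tagln and Fbln5. Those that fell were Ccna2, which encodes cyclin A2, and the splicing factor mRNA Srsf2. Without polysome LF replicate 2 all 14 were called again, among 2550 of 14803 genes (17.2%), and so they were without polysome LF replicate 1, among 5576 of 14847 genes (37.6%). In a fit of the 8 HF and LF libraries alone, 2 of the 14 were called, neither of them protein-coding, and leaving out any 1 of the 10 libraries other than polysome LF gave 2 to 6 calls in all. The 9 protein-coding calls thus rest on the spread estimated from all 12 libraries. Leaving out either LF polysome library took the spread of that pair out of the fit. Being called again there does not test the 14 genes against that spread. With sample quality weights in limma voom, 5 genes were called. At an unadjusted p under 0.05, 1062 genes were higher in HF (7.36%) and 1052 lower (7.29%), and the median change over all genes was 0.00026 on the log2 scale, with quartiles of -0.31 and 0.34.

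**Figure D1:**
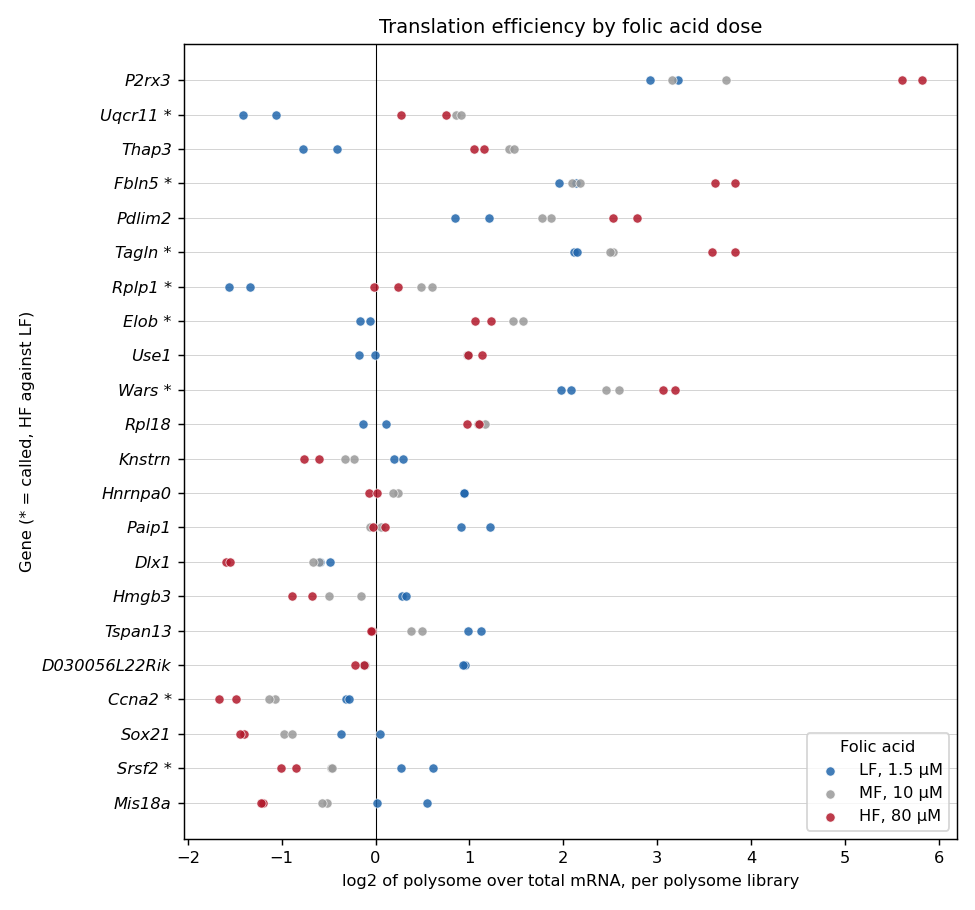
Polysome-to-total ratio (log2, horizontal axis) of 22 protein-coding genes chosen for a small p and for ratios of HF and LF that do not overlap, with 1 point per polysome library in LF, MF and HF; an asterisk marks the 8 of them that were called. Uqcr11 is at 0.75 and 0.27 in HF against -1.06 and -1.42 in LF; Gm10273 was left out because its total mRNA was at 0 in LF.

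For 6 of these 9 genes polysome mRNA of the doses did not overlap whereas total mRNA did. Wars differed by its slightly higher total mRNA in both HF libraries. In Tagln and Fbln5, total mRNA was lower in both HF libraries while polysome mRNA was higher. Over all genes, total mRNA gave 0 calls between HF and LF in the fit of all 12 libraries (306 genes at an unadjusted p under 0.05), and polysome mRNA gave 1320 (9.15%). These counts rest on a spread shared by both fractions. Fitted on the 6 libraries of each fraction alone, total mRNA gave 249 calls and polysome mRNA 2, with 1750 and 1882 genes at an unadjusted p under 0.05. In bulk samples such as these, fewer cells of a type and less RNA per cell cannot be told apart. A TE change here is a change in the ratio of separately scaled libraries. Whether it reflects ribosome loading alone was not tested.

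**Figure D2:**
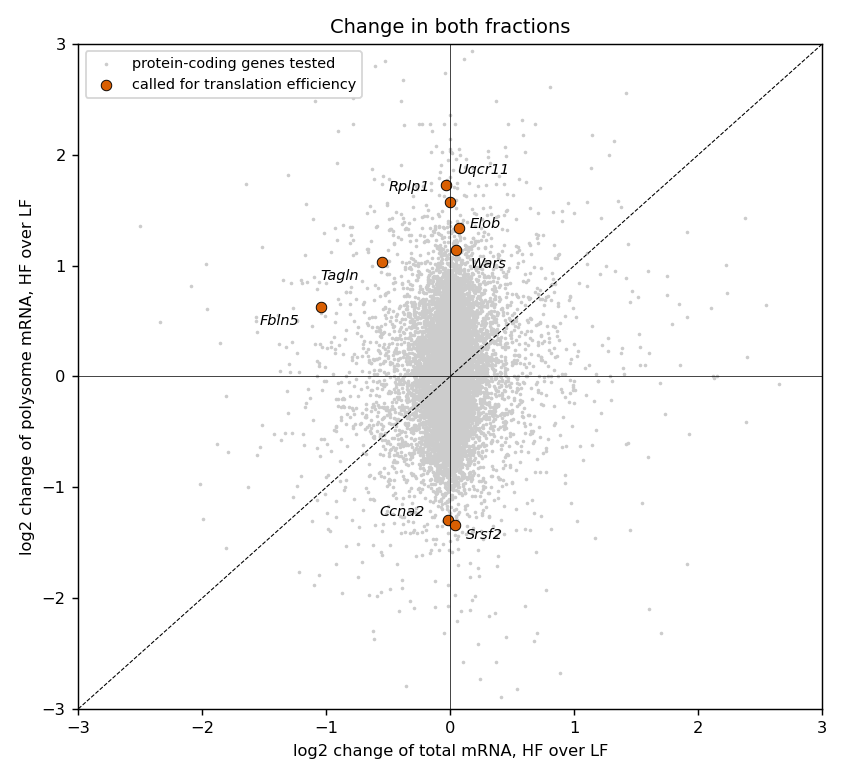
Change of total mRNA (horizontal) and of polysome mRNA (vertical), HF over LF on the log2 scale, for 12956 protein-coding genes, with 8 of those called for TE in orange and the line of equal change dashed; 43 genes beyond 3 on either axis are not drawn. The called genes other than Tagln and Fbln5 sit close to a total mRNA change of 0, with Rplp1 at 1.58 and Srsf2 at -1.34 in polysome mRNA.

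Rplp1 was called as more polysomal in HF, and more ribosomal protein mRNAs lay above 0 in TE difference than below it. Rplp1 encodes an acidic stalk protein of the large subunit (chr9:61913284-61914542, minus strand, mm10). Its polysome mRNA was at 267 and 223 CPM in HF against 88.6 and 75.8 CPM in LF, and its total mRNA at 223 and 228 CPM in HF against 195 and 257 CPM in LF, all in CPM, counts scaled for the size of each library. The polysome values did not overlap, whereas the total values did, and TE rose 2.98-fold (log2 1.58 ± 0.219 SE, adjusted p = 0.0466). Without polysome LF replicate 2 the log2 change of Rplp1 was 1.47. In MF, Rplp1 polysome mRNA was at 332 and 359 CPM, above both HF values.

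Of 47 large subunit mRNAs, 21 had an unadjusted p under 0.05 with higher TE in HF and 4 with lower, and the median TE difference was 0.38. Of 32 small subunit mRNAs, 12 were higher and 3 lower at that level, with a median of 0.22. Both shares exceeded the 7.36% of all genes that were higher. Polysome-to-total ratios of HF and LF did not overlap for 26 large and 15 small subunit mRNAs that were higher in HF, where 15.2% of all genes behaved so. Lower in HF without overlap were 5 and 5, against 14.4% of all genes. Without polysome LF replicate 2, 20 large and 13 small subunit mRNAs were called higher and 0 and 1 lower (all genes, 8.65% higher and 8.57% lower). Without replicate 1, 22 large and 13 small subunit mRNAs were called higher and 9 and 5 lower (all genes, 21.9% higher and 15.6% lower). Many ribosomal protein genes have processed pseudogenes of near-identical sequence, between which RSEM divides read pairs, so single values are uncertain.

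Members with the smallest p-values came from both subunits. Rpl18 of the large subunit had polysome mRNA at 999 and 909 CPM in HF against 499 and 421 CPM in LF (TE difference 1.05 ± 0.168 SE, adjusted p = 0.053). Rpl19, also of the large subunit, had polysome mRNA at 1812 and 1764 CPM in HF against 1081 and 1050.4 CPM in LF, with a TE difference of 0.78 ± 0.142 (SE) and an adjusted p of 0.0652. Of the small subunit, Rps26 had polysome mRNA at 273 and 229 CPM in HF against 118 and 122 CPM in LF. Its TE difference was 1.08 ± 0.183 (SE; adjusted p = 0.0563). In all 3 the HF libraries were above both LF libraries. Rps19 and Rps15 of the small subunit had TE differences of 0.95 and 1.205, both with an adjusted p of 0.0563, so that neither passed. With the trend on GC content removed from each library, 9 large and 8 small subunit mRNAs were called higher and 1 of each lower, where 4.11% of all genes were called higher and 3.3% lower. Rps24 of the small subunit and Rpl39 of the large, picked after seeing their values, lay on the other side at -0.76 and -1.07 (adjusted p = 0.176 and 0.247).

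The pyrimidine run at the start of these mRNAs is the element that mTOR acts through, and the following starts are shown to set it beside the TE change. RefSeq starts (GRCm38.p6, the build of the deposited files) were found for 58 of the 79 genes. Each line gives 25 bases, 5 before the start and 20 from it, and capitals mark a C at the first transcribed base with the unbroken C or T that follows.
Rpl15: gccttCTTCCTTTCCTCTggcggca
Rps18: ccgctCTCTCTTCCacaggaggcct
Fau: cacttCTTCCTCTTTCTTgactcca
Rplp2: tcttcCTTTCgccgccggacgccgc
Rps6: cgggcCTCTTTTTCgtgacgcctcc
Rps15a: gccatCTTCCCTCgccggtgagtga
Rpl35a: ccttcCTCTTTCCgccatcttggcg

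These windows lie at chr14:18270967-18270991 (minus strand) for Rpl15, chr17:33955646-33955670 (minus) for Rps18, chr19:6057942-6057966 (plus) for Fau, chr7:141447646-141447670 (plus) for Rplp2, chr4:86857348-86857372 (minus) for Rps6, chr7:118116128-118116152 (minus) for Rps15a and chr16:33056477-33056501 (plus) for Rpl35a. Rpl15 and Rplp2 belong to the large subunit, Rps18, Rps6 and Rps15a to the small, Fau encodes a small subunit protein fused to a ubiquitin-like one, and Rpl35a belongs to the large. The first 4 were those with a run and an unadjusted p under 0.05, and their TE differences were 0.85, 0.79, 1.57 and 0.81. The last 3 also have a run, and their TE differences were 0.21, -0.37 and -0.36. A C followed by at least 4 pyrimidines stood at the RefSeq start of 14 of the 58 genes, 4 of them higher in HF and 0 lower at an unadjusted p under 0.05, with a median TE difference of 0.22. Of the 44 without it, 19 were higher and 6 lower, with a median of 0.33 (all genes, 7.36% higher and 7.29% lower). Over all protein-coding genes with a RefSeq start, 304 (2.97%) had such a run, with a median difference of 0.05 against 0.01 in the other 9920. The motif was searched on the transcribed strand at the annotated start alone, and a start set a few bases away hides it.

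mRNAs of the amino acid response, the transporters, tRNA synthetases and serine and asparagine enzymes that the transcription factor ATF4 controls, lay above 0 in TE difference in 35 of 37 cases. Wars encodes the cytosolic tryptophanyl-tRNA synthetase (chr12:108860030-108894174, minus strand) and was the member called. Its polysome mRNA was at 790.4 and 861 CPM in HF against 388 and 361 CPM in LF, and its total mRNA at 95.3 and 93.3 CPM in HF against 91.3 and 91.5 CPM in LF. Both polysome values of HF were far above those of LF, while total mRNA of HF was above that of LF by a small margin. TE rose 2.14-fold (log2 1.10 ± 0.152 SE, adjusted p = 0.0466), and without polysome LF replicate 2 the change was 1.05. MF lay between, with polysome mRNA at 514 and 563 CPM.

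Of 37 members tested, 21 had an unadjusted p under 0.05 with higher TE in HF and none with lower (all genes, 7.36% and 7.29%). Their median TE difference was 0.70. Ratios did not overlap in 27 members, all higher in HF, where 15.2% of all genes behaved so. Without polysome LF replicate 2 the median was 0.85 and without replicate 1 it was 0.70. With the GC trend removed 10 were called, all higher, where 4.11% of all genes were called higher. The median lay between 0.44 and 0.89 under the 27 alternatives. Slc3a2, the heavy chain of heteromeric amino acid transporters, had polysome mRNA at 1788 and 1878 CPM in HF against 1019.7 and 895 CPM in LF (TE difference 0.98 ± 0.161 SE, adjusted p = 0.0555). Sars, the seryl-tRNA synthetase, had polysome mRNA at 995 and 1161 CPM in HF against 537 and 592 CPM in LF, with a TE difference of 0.92 ± 0.161 (SE) and an adjusted p of 0.0563. In both, every HF value exceeded every LF value. Ppp1r15a, which encodes the GADD34 subunit that directs a phosphatase to eIF2, had polysome mRNA at 396 and 355 CPM in HF against 117 and 126 CPM in LF (TE difference 1.68 ± 0.295 SE, adjusted p = 0.0563).

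The next members were picked after seeing their values. Ddit3, the stress transcription factor CHOP, had log2 ratios of 5.88 and 5.71 in HF against 3.38 and 4.32 in LF, and Trib3, a pseudokinase induced by it, of 8.32 and 8.21 in HF against 6.69 and 6.54 in LF. Their TE differences were 1.88 and 1.66, with adjusted p-values of 0.0786 and 0.0771. Phgdh, the first enzyme of serine synthesis, had ratios of 2.15 and 2.42 in HF against 1.37 and 0.83 in LF (TE difference 1.16, adjusted p = 0.0761). None of the 3 passed. Each fraction was scaled to its own library, and total mRNA includes mRNA on polysomes. Summed over the 37 members, polysome mRNA was at 19270 and 20910 CPM in HF and 11240 and 13060 CPM in LF. Total mRNA was at 2743 and 2786 CPM in HF and 2679 and 2715 CPM in LF. Whether ratios this large reflect ribosome loading alone was not tested. Atf4 itself had a TE difference of 0.60 (adjusted p = 0.411). The cystine transporter mRNA Slc7a11 and the transaminase mRNA Gpt2 had TE differences of -0.06 and -0.07, the only values below 0 in the list.

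**Figure D3:**
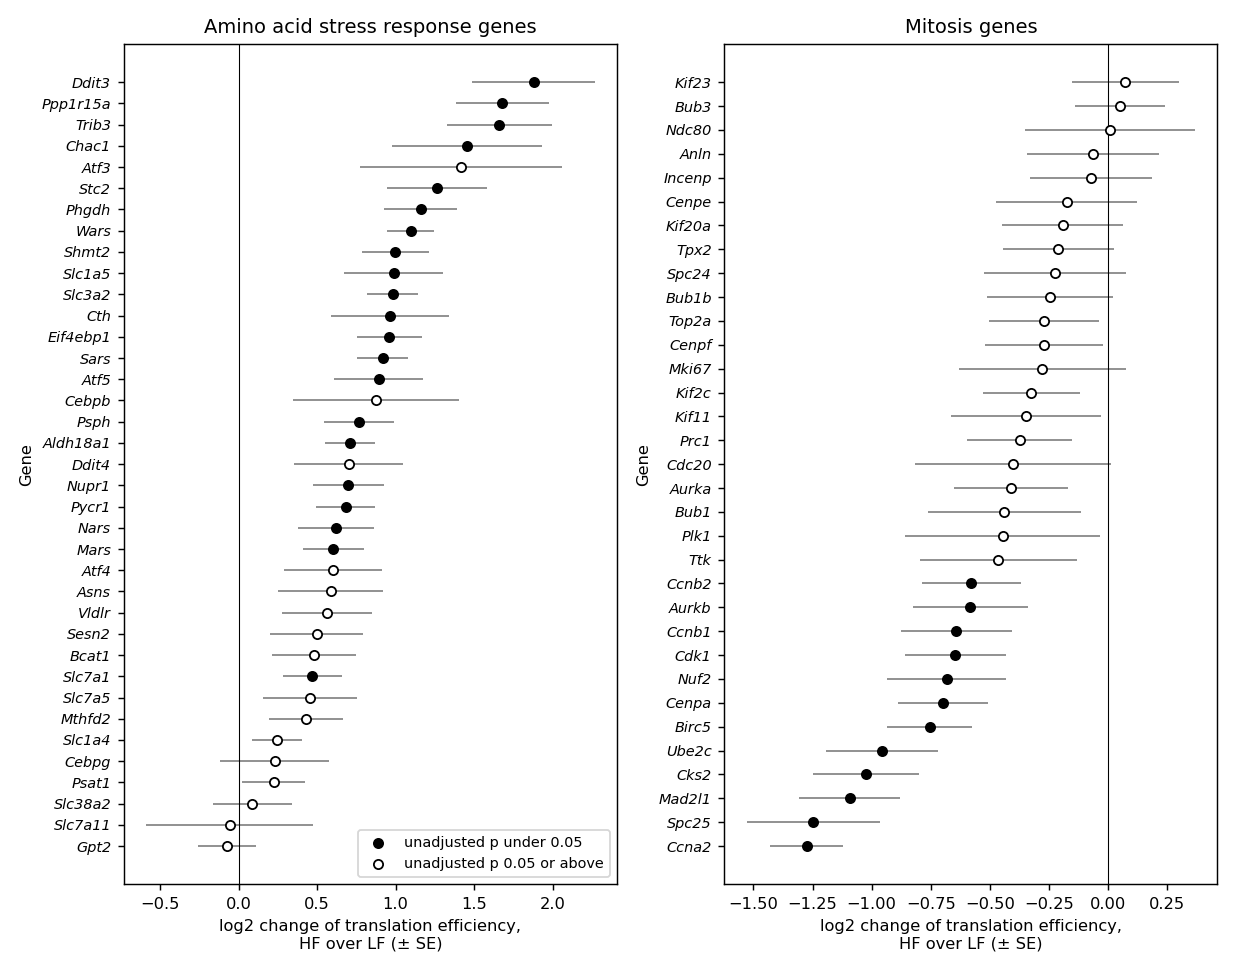
TE change, HF over LF on the log2 scale with SE, of the 37 amino acid response genes (left) and the 33 mitosis genes (right), with filled points at an unadjusted p under 0.05. On the left 35 of 37 points lie above 0 and 21 are filled; on the right 30 of 33 lie below 0 and 12 are filled.

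Uqcr11 encodes a small subunit of respiratory complex III, the cytochrome bc1 complex (chr10:80402997-80406830, minus strand). Its polysome mRNA was at 67.5 and 48.3 CPM in HF against 19.6 and 15.3 CPM in LF, and its total mRNA at 40.5 and 39.6 CPM in HF against 37.3 and 44.8 CPM in LF. The polysome groups stood wide apart and the total groups overlapped, and TE rose 3.40-fold (log2 1.76 ± 0.264 SE, adjusted p = 0.0492; without polysome LF replicate 2, 1.60). Of the 39 subunits of complexes II to V, Uqcr11 included, 9 were higher and 8 lower at an unadjusted p under 0.05 (all genes, 7.36% and 7.29%). Uqcrq and Uqcr10, also of complex III, had TE differences of 1.91 and 1.00 (adjusted p = 0.0814 and 0.0892), whereas Cox5a of cytochrome c oxidase had polysome mRNA at 111 and 105 CPM in HF against 177 and 206 CPM in LF (TE difference -0.82 ± 0.169 SE, adjusted p = 0.0786). With the GC trend removed, 3 of this list were called higher and 6 lower, where 4.11% of all genes were called higher and 3.3% lower.

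Of 37 nuclear-encoded complex I mRNAs, 11 were higher and 1 lower at an unadjusted p under 0.05 (all genes, 7.36% and 7.29%), with a median of 0.15. Ndufs8, an iron-sulfur subunit, had polysome mRNA at 118 and 121 CPM in HF against 66.3 and 62.1 CPM in LF, with a TE difference of 1.04 ± 0.171 (SE) and an adjusted p of 0.0555. Ndufa2 and Ndufs7, both of the same complex, had TE differences of 0.87 and 1.17 (adjusted p = 0.0912 and 0.17). Ndufa13, which the study followed at the protein level and which was therefore not chosen independently of these samples, had polysome mRNA at 129.9 and 105 CPM in HF against 68.7 and 60.1 CPM in LF (TE difference 0.88 ± 0.213 SE, adjusted p = 0.103). With the GC trend removed the difference was 0.37 (adjusted p = 0.487). None of these 4 passed in the fit of all 12 libraries. The list median was 0.25 without polysome LF replicate 2 and 0.11 without replicate 1.

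Transcripts of the mitochondrial genome, which are translated inside the organelle by its own ribosomes, had TE differences below 0 in all 13 cases. Their median was -1.11, but 3 had an unadjusted p under 0.05 (all genes, 7.29% lower) and none was called. mt-Atp6, a subunit of ATP synthase, had polysome mRNA at 53.7 and 27.5 CPM in HF against 129.7 and 211 CPM in LF (TE difference -2.05 ± 0.514 SE, adjusted p = 0.11). mt-Nd5, of complex I, had polysome mRNA at 162 and 90.8 CPM in HF against 193 and 333 CPM in LF, where the first LF library was close to the first HF library. Their summed polysome level was at 5951 and 3239 CPM in HF and 4923 and 9853 CPM in LF, so that the first HF library lay above the first LF library. Without polysome LF replicate 2 the median was -0.57 and without replicate 1 it was -1.36. With the GC trend removed 3 were called lower, where 3.3% of all genes were.

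Elob encodes elongin B, a partner of elongin C in transcription elongation and in cullin ubiquitin ligases (chr17:23824738-23829136, minus strand). Polysome mRNA of Elob was at 176 and 156 CPM in HF against 68.4 and 63.2 CPM in LF, and its total mRNA at 72.0 and 77.9 CPM in HF against 65.1 and 77.6 CPM in LF. HF exceeded LF in every polysome library, and TE rose 2.40-fold (log2 1.27 ± 0.187 SE, adjusted p = 0.0483; without polysome LF replicate 2, 1.21). Of the 9 protein-coding calls it was the 1 lost when the GC trend was removed, with a TE difference of 0.90 and an adjusted p of 0.0562. In MF its polysome mRNA was at 217 and 201 CPM, above both HF values.

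A contractile and a matrix mRNA were called, both higher in TE in HF although their total mRNA was lower. Tagln encodes transgelin, an actin-binding protein of smooth muscle and mural cells (chr9:45929619-45936058, minus strand). Its polysome mRNA was at 242 and 287 CPM in HF against 127 and 131 CPM in LF, whereas its total mRNA was at 18.4 and 22.1 CPM in HF against 27.1 and 32.2 CPM in LF. Neither fraction overlapped between doses, and they moved in opposite directions. TE rose 2.99-fold (log2 1.58 ± 0.212 SE, adjusted p = 0.0466; without polysome LF replicate 2, 1.60). Fbln5 encodes fibulin-5, which helps to assemble elastic fibres (chr12:101746565-101819055, minus strand). Polysome mRNA of Fbln5 was at 199.8 and 233 CPM in HF against 149 and 131 CPM in LF, and its total mRNA at 13.9 and 19.1 CPM in HF against 31.8 and 35.9 CPM in LF, for a rise of 3.18-fold in TE (log2 1.67 ± 0.244 SE, adjusted p = 0.0483; without polysome LF replicate 2, 1.58). Again polysome and total mRNA moved apart with no overlap.

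Of 11 mesenchymal and mural markers tested of 16 listed, all had a TE difference above 0, with a median of 0.90. Of these markers, 4 had an unadjusted p under 0.05 (all genes, 7.36% higher). Their summed level was at 949.5 and 1122 CPM in HF polysomes against 779 and 557 CPM in LF polysomes, and at 215 and 247 CPM in HF total mRNA against 300.0 and 339.6 CPM in LF total mRNA. No listed marker was at 0 in all 8 libraries, but Kcnj8 and Abcc9 had a median of 0 CPM. The medians of Rgs5, Cnn1 and Des were 0.18, 0.16 and 0.09 CPM. The part that a change in such cells had in the result was not tested. Acta2, smooth muscle actin, had polysome mRNA at 382 and 457 CPM in HF against 282 and 202 CPM in LF and total mRNA at 25.9 and 34.4 CPM in HF against 44.7 and 51.3 CPM in LF (TE difference 1.46 ± 0.275 SE, adjusted p = 0.0694). Myl9, a myosin light chain, had a TE difference of 1.304 ± 0.235 (SE; adjusted p = 0.0595). Lum, the proteoglycan lumican, had polysome mRNA at 7.46 and 9.19 CPM in HF against 10.3 and 15.6 CPM in LF, and a TE difference of 0.90 (adjusted p = 0.328).

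Among 33 other matrix mRNAs, 12 were higher and 2 lower at an unadjusted p under 0.05 (all genes, 7.36% and 7.29%). Their median was 0.60. Laminin mRNAs, which encode chains of the basement membrane, were the next by p-value. Lamb1 had polysome mRNA at 601 and 710.2 CPM in HF against 343 and 302 CPM in LF, with a TE difference of 1.12 ± 0.194 (SE) and an adjusted p of 0.0563. Lama4 and Lama2 had TE differences of 0.83 and 0.79 (adjusted p = 0.1 and 0.162). With the GC trend removed 8 were called higher and 2 lower, where 4.11% of all genes were called higher and 3.3% lower. The list median was 0.57 without polysome LF replicate 2 and 0.64 without replicate 1. Collagens had a median of 0.50, which was 0.08 without polysome LF replicate 2 and 1.19 without replicate 1.

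Metallothioneins, small proteins that bind zinc and copper, had TE differences above 0. Mt3 had polysome mRNA at 164 and 129 CPM in HF against 84.8 and 57.5 CPM in LF, and Mt2 at 65.9 and 60.0 CPM in HF against 42.9 and 33.0 CPM in LF. Their TE differences were 1.33 ± 0.254 (SE) and 1.11 ± 0.212 (SE), with adjusted p-values of 0.0728 and 0.0741, and Mt1 had a TE difference of 1.04 (adjusted p = 0.14). None passed, but all 3 were called with the GC trend removed, where 4.11% of all genes were called higher. Slc30a1, a zinc exporter of the same response, had a TE difference of -0.29 (adjusted p = 0.648).

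Of 20 glycolysis mRNAs, 19 had a TE difference above 0, with a median of 0.53. At an unadjusted p under 0.05, 6 were higher in HF and none lower (all genes, 7.36% and 7.29%). Hk2, hexokinase 2, had polysome mRNA at 65.3 and 78.8 CPM in HF against 35.3 and 38.3 CPM in LF (TE difference 0.86 ± 0.204 SE, adjusted p = 0.1). Slc2a1, the glucose transporter GLUT1, had polysome mRNA at 85.8 and 110.4 CPM in HF against 61.1 and 36.5 CPM in LF, with a TE difference of 0.96 ± 0.303 (SE) and an adjusted p of 0.184. The enolase mRNAs Eno2 and Eno1 had TE differences of 0.82 and 0.69 (adjusted p = 0.187 and 0.293). The median was 0.26 without polysome LF replicate 2 and 0.81 without replicate 1.

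Among mRNAs of cell division, cyclin A2 had the smallest p of any protein-coding gene. Ccna2, which drives DNA replication and entry into mitosis (chr3:36564865-36572150, minus strand), had polysome mRNA at 97.1 and 109 CPM in HF against 250.98 and 255.15 CPM in LF, and total mRNA at 312 and 303 CPM in HF against 305 and 318 CPM in LF. Polysome values were far apart with close replicates, and total values overlapped. TE fell 2.42-fold (log2 -1.28 ± 0.155 SE, adjusted p = 0.0363), and without polysome LF replicate 2 the change was -1.26. MF lay between, at 139 and 132 CPM in polysome mRNA.

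Of 33 mitosis mRNAs, 30 had a TE difference below 0, with a median of -0.40. At an unadjusted p under 0.05, 12 were lower in HF and none higher (all genes, 7.29% and 7.36%). Ratios did not overlap in 14, all lower, where 14.4% of all genes behaved so. Mad2l1, of the spindle checkpoint, had polysome mRNA at 70.2 and 79.7 CPM in HF against 139 and 183 CPM in LF (TE difference -1.09 ± 0.215 SE, adjusted p = 0.0752). Spc25, of the kinetochore, had polysome mRNA at 57.1 and 54.8 CPM in HF against 103 and 173 CPM in LF, and Cks2, a partner of cyclin-dependent kinases, at 39.5 and 37.6 CPM in HF against 67.8 and 91.1 CPM in LF. Their TE differences were -1.25 ± 0.281 (SE) and -1.02 ± 0.223 (SE), with adjusted p-values of 0.0912 and 0.0857. In each of the 3, both HF libraries were below both LF libraries. With the GC trend removed 7 of the list were called, all lower, where 3.3% of all genes were called lower. The list median was -0.34 without polysome LF replicate 2 and -0.49 without replicate 1.

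Other genes of chromosome segregation stood among those with the smallest p-values over all genes, though not called. Mis18a, which helps to load the centromeric histone CENP-A, had polysome mRNA at 6.71 and 6.59 CPM in HF against 15.0 and 21.8 CPM in LF (TE difference -1.52 ± 0.262 SE, adjusted p = 0.0563). Knstrn, a spindle protein, had polysome mRNA at 76.4 and 68.5 CPM in HF against 134 and 144 CPM in LF, with a TE difference of -0.93 ± 0.162 (SE) and an adjusted p of 0.0563. Among DNA replication mRNAs, 7 of 35 were lower and 1 higher at an unadjusted p under 0.05 (all genes, 7.29% and 7.36%). Their median was -0.27. Rrm2, a subunit of ribonucleotide reductase, had polysome mRNA at 221 and 265 CPM in HF against 405 and 369 CPM in LF (TE difference -0.66 ± 0.178 SE, adjusted p = 0.133). Gins1 and Prim1 of the replication fork and Pcna, the sliding clamp, had TE differences of -0.78, -0.69 and -0.65 (adjusted p = 0.168, 0.242 and 0.186).

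Srsf2, an SR protein that selects splice sites (chr11:116849901-116853094, minus strand), had polysome mRNA at 90.6 and 80.8 CPM in HF against 243 and 191 CPM in LF, and total mRNA at 161 and 165 CPM in HF against 166 and 151 CPM in LF. Both HF polysome libraries were below both LF libraries, and total values overlapped. TE fell 2.60-fold (log2 -1.38 ± 0.193 SE, adjusted p = 0.0466; without polysome LF replicate 2, -1.54). Of 38 splicing and RNA-binding regulators, 11 were lower and 1 higher at an unadjusted p under 0.05 (all genes, 7.29% and 7.36%). Their median was -0.22. Hnrnpd had polysome mRNA at 149.9 and 157 CPM in HF against 268 and 259.5 CPM in LF (TE difference -0.81 ± 0.154 SE, adjusted p = 0.0728), and Snrpd1, a core spliceosome protein, had a TE difference of -0.92 (adjusted p = 0.0915). Sf3b5 of the U2 particle lay on the other side at 1.42 (adjusted p = 0.082). Outside the list, Hnrnpa0 had polysome mRNA at 99.9 and 106 CPM in HF against 197 and 198 CPM in LF and Paip1, which binds the poly(A)-binding protein and promotes translation, at 167 and 153 CPM in HF against 288 and 355 CPM in LF. Their TE differences were -0.97 ± 0.161 (SE) and -1.03 ± 0.180 (SE), with adjusted p-values of 0.0555 and 0.0563.

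Several transcription factors of neural stem and progenitor cells had TE differences below 0, though none was called. Those named here were picked for a small p or by name. Of 21 NSC identity genes, 14 lay below 0 and 7 above. Of 19 neuroblast and neuron genes, 12 lay below 0 and 7 above. Sox21 had polysome mRNA at 29.3 and 28.3 CPM in HF against 73.9 and 55.4 CPM in LF and total mRNA at 80.2 and 74.4 CPM in HF against 73.8 and 68.9 CPM in LF (TE difference -1.28 ± 0.213 SE, adjusted p = 0.0555). Dlx1, a homeobox factor of interneuron progenitors, had polysome mRNA at 17.2 and 17.8 CPM in HF against 36.8 and 39.5 CPM in LF, with a TE difference of -1.03 ± 0.175 (SE) and an adjusted p of 0.0563. In both genes the HF values were below the LF values in every polysome library. Sox1 and Sox2, which maintain the neural progenitor state, had TE differences of -0.76 ± 0.160 (SE) and -0.74 ± 0.229 (SE; adjusted p = 0.082 and 0.176), and Dlx2 one of -0.94 ± 0.272 (SE; adjusted p = 0.155). Without polysome LF replicate 2 the TE differences of Sox21, Dlx1, Sox1, Sox2 and Dlx2 were -1.47, -0.98, -0.83, -0.47 and -1.19. Without replicate 1 they were -1.05, -1.08, -0.67, -0.96 and -0.61.

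Of 21 NSC identity genes, 8 were lower and none higher at an unadjusted p under 0.05 (all genes, 7.29% and 7.36%). The median of these 21 was -0.24. Their summed level was at 5981 and 6214 CPM in HF polysomes against 6644 and 7421 CPM in LF polysomes, and at 7537 and 7068 CPM in HF total mRNA against 6416 and 6250.0 CPM in LF total mRNA. Vim, the intermediate filament vimentin, had polysome mRNA at 2857 and 3129.7 CPM in HF against 3571 and 3749.7 CPM in LF (TE difference -0.50 ± 0.137 SE, adjusted p = 0.136). Nes, the filament nestin by which NSCs are often marked, had a TE difference of 0.13 ± 0.290 (SE; adjusted p = 0.893), and the LF values of 412 and 252 CPM on polysomes were far apart. Neuroblast and neuron genes went both ways, 3 of 19 being higher and 4 lower at that level (all genes, 7.36% and 7.29%). Tubb3, neuronal tubulin, had a TE difference of 0.95 and Gad2, which makes GABA, one of -1.12 (adjusted p = 0.186 and 0.134).

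Of 21 sterol synthesis mRNAs, 9 were lower and 1 higher at an unadjusted p under 0.05 (all genes, 7.29% and 7.36%). Their median was -0.53. Ratios of 13 members lay below those of LF with no overlap, and 1 lay above (all genes, 14.4% below and 15.2% above). Idi1, isopentenyl diphosphate isomerase, had polysome mRNA at 52.8 and 57.4 CPM in HF against 93.5 and 126 CPM in LF (TE difference -1.01 ± 0.209 SE, adjusted p = 0.0786). Hmgcs1, which makes the precursor of mevalonate, had polysome mRNA at 156 and 206 CPM in HF against 279 and 349.8 CPM in LF, with a TE difference of -0.87 ± 0.234 (SE) and an adjusted p of 0.13. Nsdhl and Sqle of the later steps had TE differences of -0.86 and -0.56 (adjusted p = 0.0912 and 0.148). No member was called in the fit of all 12 libraries, and 3 were called lower with the GC trend removed, where 3.3% of all genes were. The list median was -0.52 without polysome LF replicate 2 and -0.405 without replicate 1.

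Enzymes and carriers of folate went both ways, with a median of 0.12. At an unadjusted p under 0.05, 6 of 33 were higher and 3 lower (all genes, 7.36% and 7.29%). Shmt2, the mitochondrial serine hydroxymethyltransferase that is also an ATF4 target, had polysome mRNA at 549 and 589 CPM in HF against 278 and 208 CPM in LF (TE difference 1.00 ± 0.212 SE, adjusted p = 0.082). Slc19a1, the reduced folate carrier, had polysome mRNA at 25.7 and 24.2 CPM in HF against 17.0 and 10.8 CPM in LF, with a TE difference of 0.90 ± 0.291 (SE) and an adjusted p of 0.186. Both carried more polysome mRNA in each HF library than in either LF library. Gcsh of the glycine cleavage system had a TE difference of -0.62 (adjusted p = 0.146).

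Of 10 RNA cytosine methyltransferases and readers, 3 were higher and none lower at an unadjusted p under 0.05 (all genes, 7.36% and 7.29%). The median was 0.17, with 6 members above 0 and 4 below. It was 0.35 without polysome LF replicate 2 and -0.08 without replicate 1. No member was called, with the GC trend left in or removed. Nop2, a nucleolar methyltransferase of ribosomal RNA, had polysome mRNA at 134 and 166 CPM in HF against 85.6 and 73.3 CPM in LF (TE difference 0.79 ± 0.195 SE, adjusted p = 0.107). Nsun2, which methylates tRNA and mRNA, had a TE difference of 0.25 ± 0.187 (SE; adjusted p = 0.603). Of the other genes that the study followed at the protein level, Gng11, a G protein gamma subunit, had polysome mRNA at 10.2 and 8.78 CPM in HF against 15.3 and 23.2 CPM in LF (TE difference -1.28 ± 0.303 SE, adjusted p = 0.1). Ptx3, a pentraxin, had polysome mRNA at 6.79 and 7.75 CPM in HF against 7.69 and 5.66 CPM in LF, with a TE difference of 0.09 ± 0.407 (SE) and an adjusted p of 0.961. Its HF and LF values overlapped. These genes were picked by the study on these samples. The study tested TE of each dose against MF, not HF against LF. It reported TE and protein of Ptx3 as higher in HF, of Gng11 as higher in LF and of Ndufa13 as lower in LF. The values here are thus of another contrast, and protein was not measured in it.

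Medians of signalling lists depended on which LF polysome library was kept. Notch pathway genes had a median of 0.01 and Wnt pathway genes of -0.12, and both medians had opposite signs between the fit without polysome LF replicate 2 (-0.14 and -0.22) and that without replicate 1 (0.17 and 0.29). The PI3K, AKT and mTOR list had a median of 0.21, of -0.01 without LF replicate 2 and of 0.47 without LF replicate 1. Within it, Eif4ebp1, the translation repressor that mTOR phosphorylates, had polysome mRNA at 240.1 and 197 CPM in HF against 117 and 100.1 CPM in LF (TE difference 0.96 ± 0.206 SE, adjusted p = 0.082). Irs1, an insulin receptor substrate, had a TE difference of 0.75 and Fgfr2, a receptor of the bFGF in the medium, one of -0.55 (adjusted p = 0.119 and 0.234). Among translation factors, Eif6 and Eif3c had TE differences of 1.13 and 0.92 (adjusted p = 0.0752 and 0.102).

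**Figure D4:**
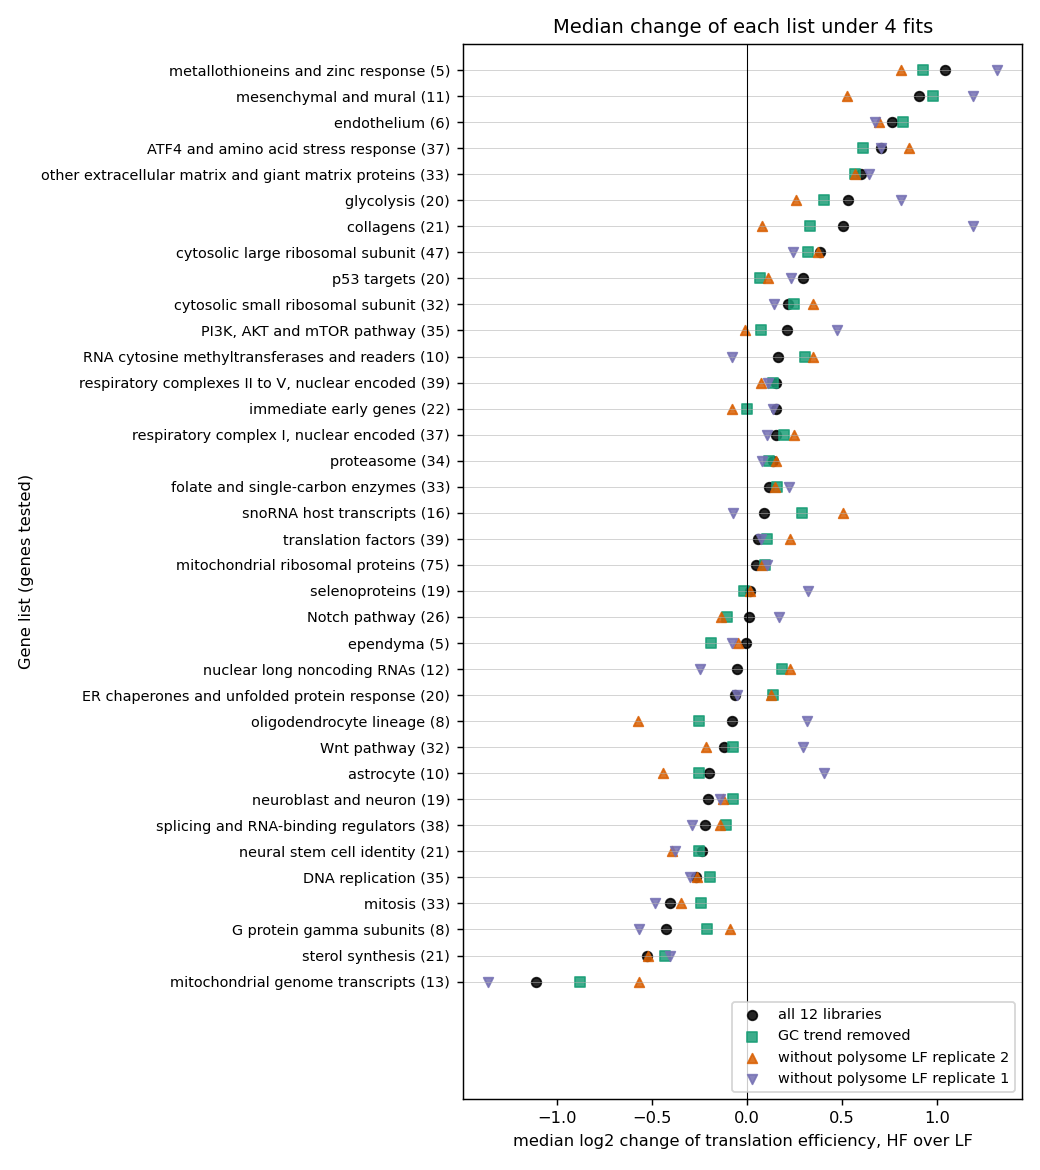
Median TE change, HF over LF on the log2 scale, of each gene list with at least 5 tested genes (number tested in brackets) in the fit of all 12 libraries, with the GC trend removed and without each LF polysome library. The amino acid response list stays between 0.61 and 0.85 and the mitosis list between -0.49 and -0.24 in the 4 fits, whereas the astrocyte list runs from -0.44 to 0.41.

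Among other genes with the smallest p-values, Pdlim2, which binds actin filaments, had polysome mRNA at 78.3 and 65.7 CPM in HF against 40.4 and 31.5 CPM in LF and total mRNA at 10.5 and 12.2 CPM in HF against 15.8 and 19.4 CPM in LF (TE difference 1.63 ± 0.250 SE, adjusted p = 0.0519). Thap3, of the THAP zinc finger family, had polysome mRNA at 17.4 and 16.1 CPM in HF against 7.44 and 5.79 CPM in LF, with a TE difference of 1.70 ± 0.260 (SE) and an adjusted p of 0.0519. Use1, a SNARE of transport from Golgi to endoplasmic reticulum, had a TE difference of 1.16 ± 0.185 (SE; adjusted p = 0.053). All 3 were higher in both HF polysome libraries. P2rx3, an ATP-gated channel, had polysome mRNA at 25.4 and 21.9 CPM in HF against 9.44 and 11.6 CPM in LF and total mRNA at 0.507 and 0.326 CPM in HF against 1.11 and 1.31 CPM in LF (TE difference 2.69 ± 0.424 SE, adjusted p = 0.053). On the other side were Tspan13, a tetraspanin, with polysome mRNA at 41.7 and 41.3 CPM in HF against 89.4 and 98.1 CPM in LF (TE difference -1.10 ± 0.173 SE, adjusted p = 0.053), and Hmgb3, a chromatin protein of stem and progenitor cells, at 81.4 and 93.8 CPM in HF against 181 and 186 CPM in LF (TE difference -1.08 ± 0.192 SE, adjusted p = 0.0593). D030056L22Rik had a TE difference of -1.11 ± 0.177 (SE; adjusted p = 0.053).

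Of the 14 calls, 5 were not protein-coding and are uncertain, since no source used here gives the strand setting of the counting and read pairs can be split between near-identical copies. Prss23os, an antisense gene (chr7:89510007-89511873, plus strand), had 1340 and 1284 polysome counts in HF and none in either LF library, while total counts were 583 and 610 in HF and 527 and 780 in LF. With LF set to 3 counts over the group, its TE was at least 870-fold higher in HF (adjusted p = 6.47e-06). Gm8203, a processed pseudogene, had 981 and 617 polysome counts in HF and none in LF, for a TE at least 465-fold higher (adjusted p = 0.000284). These 2 were the calls kept in the fit of 8 libraries. Gm6851, a processed pseudogene, had 115 and 44 polysome counts in HF and 0 and 1 in LF, but no total count in HF, so no fold is given. Rpl37rt, a transcribed pseudogene of a ribosomal protein gene, had polysome RNA at 31.3 and 14.6 CPM in HF against 2.73 and 3.15 CPM in LF (change 3.22 ± 0.463 SE, adjusted p = 0.0483). Gm26880, a long intergenic noncoding RNA, fell, with polysome RNA at 187 and 177 CPM in HF against 326 and 359 CPM in LF (change -1.03 ± 0.152 SE, adjusted p = 0.0483). Gm10273, annotated as protein-coding and not called, ran the other way, with 76 and 205 polysome counts in HF and 1091 and 1753 in LF, and 22 and 21 total counts in HF and 0 in both LF libraries, for a TE at least 159.8-fold lower in HF with LF total mRNA set to 3 counts (adjusted p = 0.0519).

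MF cells did not enter the contrast, but their libraries entered the estimate of the spread. Their mean ratio lay between LF and HF in 6 of the 9 called protein-coding genes. It did so in 18 of the 24 genes that include those next by p-value. As these genes were chosen for HF and LF ratios that stand apart, an MF value between them is favoured. The share over all genes was not computed. Tagln ratios were at 2.11 and 2.15 in LF, 2.53 and 2.50 in MF and 3.58 and 3.83 in HF. Ccna2 ratios were at -0.31 and -0.29 in LF, -1.07 and -1.14 in MF and -1.66 and -1.49 in HF. In both, MF lay between LF and HF. In Rplp1, Uqcr11 and Elob it did not, since MF exceeded HF. Uqcr11 ratios were at -1.06 and -1.42 in LF, 0.85 and 0.91 in MF and 0.75 and 0.27 in HF. In a test of HF against MF, none of these 5 passed, with TE differences of 1.19, -0.47, -0.42, -0.35 and -0.37 for Tagln, Ccna2, Rplp1, Uqcr11 and Elob (adjusted p = 0.358 for Tagln and 0.982 for the other 4). In a test of LF against MF, Rplp1, Uqcr11 and Elob were lower in LF, with TE differences of -2.00, -2.11 and -1.63 (adjusted p = 0.0148, 0.0284 and 0.0162). Tagln and Ccna2 did not pass there, at -0.39 and 0.80 (adjusted p = 0.394 and 0.0809).

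Base composition of the transcript went with the TE change more than any other feature examined. Over 12998 protein-coding genes, Spearman's rho of the change with GC content was 0.33, with coding length 0.14 and with 3' UTR length -0.18. With the GC trend removed, rho was 0.16 with coding length and -0.04 with 3' UTR length. These are correlations across genes, which share the same libraries, and are given as a description. In 5 bins of rising GC content the median TE difference was -0.17, -0.10, -0.01, 0.11 and 0.30. In the bin with most GC the median log2 ratio was 0.03 and -0.10 in HF, and 0.09 and -0.96 in LF. LF replicate 2 was apart from the other 3 libraries, with the sign of its relation to GC content turned round. Across genes, rho of the ratio with GC content was 0.21 and 0.15 in HF, 0.26 and -0.24 in LF and 0.36 and 0.34 in MF.

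**Figure D5:**
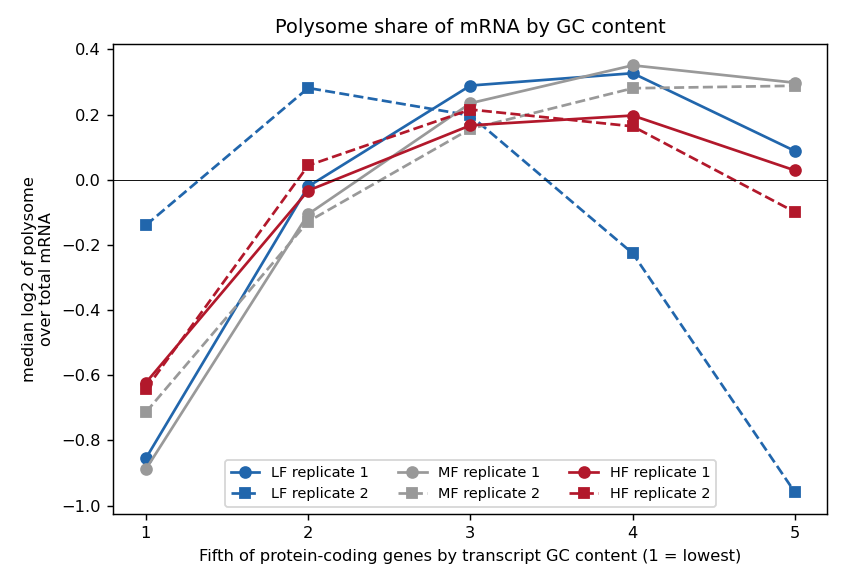
Median log2 polysome-to-total ratio (vertical) of protein-coding genes in 5 bins of transcript GC content (horizontal), 1 line per polysome library, LF, MF and HF with replicate 1 solid and replicate 2 dashed. In the highest bin LF replicate 2 is at -0.96, while the other 5 libraries lie between -0.10 and 0.30.

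With a smooth trend on GC content removed from each library, 1060 of 14302 genes were called (7.41%), 588 higher in HF (4.11%) and 472 lower (3.3%), among them 13 of the 14 genes called without it. Of the 1060, 329 were also called in a fit of the 8 HF and LF libraries in which the GC trend was removed as well. Wars was at 1.03 (adjusted p = 0.00466), Tagln at 1.53 (0.00295), Ccna2 at -1.14 (0.00295) and Srsf2 at -1.30 (0.00295). Genes that passed with the trend removed but not with it left in included Sox21 at -1.66 and Dlx2 at -1.27 among those lower, and Rpl18 at 0.99, Rps26 at 1.19, Mt3 at 1.21, Acta2 at 1.54 and Slc3a2 at 0.89 among those higher, with adjusted p-values of 0.00295, 0.00532, 0.00295, 0.00339, 0.00295, 0.00526 and 0.00872.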

How the data were processed

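The authors trimmed read pairs with Trim Galore, mapped them to mm10 and assigned them to genes with RSEM 1.3.0 and Bowtie2 2.2.9, and deposited an expected count (not whole in 4.04% to 5.95% of genes), a TPM value and an effective length per gene and library; no source used here gives the strand setting. Deposited TPM values were used only to check files. Expected counts were rounded and fitted with edgeR 4.0.16 in R 4.3.3 (filterByExpr, TMM, robust quasi-likelihood test, dose by fraction model without a block), over all 12 libraries so that they share 1 estimate of the spread (6 residual degrees of freedom). TE in HF against LF was the interaction contrast, with p-values adjusted over all 14421 genes tested. CPM were TMM-scaled, and the log2 ratio of a polysome library was its log2 CPM (prior count 1) minus the mean of the 2 total libraries of its dose. Genes were named by rule: protein-coding genes called with a mean CPM of at least 5 and ratios that did not overlap, up to 12 per direction and filled up by smallest p; up to 4 members per list by smallest p; Gng11, Ndufa13, Ptx3, Nes and Sox2; and up to 5 called genes that were not protein-coding. The contrast, members and gene lists were chosen with earlier results of these data known. Alternatives covered scaling, filters, DESeq2 1.42.0, limma 3.58.1, libraries left out, a replicate block, and lowess trends on length and GC content. GENCODE M21 annotated 42548 of 43432 gene IDs. The code was tested on simulated data. A few named genes are not reported here.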

Additional observations from a re-analysis of the deposited data

Results flagged for a closer look

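In 41 of 164 genes named by the rule and reported here (25%), both fractions separated HF from LF with no overlap and in opposite directions, where 1092 of all genes tested did so (7.57%). The named genes were mostly chosen for a small p in the TE test, so the 2 shares are not comparable, and 4 of the 41 were called (Tagln, Fbln5, Gm26880 and Gm6851). In 25 of them polysome mRNA was higher and total mRNA lower in HF. Tagln had a TE change of 1.58 and Fbln5 of 1.67, with the values given above. Pdlim2, Thap3, P2rx3 and Use1 had TE differences of 1.63, 1.70, 2.69 and 1.16. Thap3 had polysome mRNA at 17.4 and 16.1 CPM in HF against 7.44 and 5.79 CPM in LF and total mRNA at 7.61 and 7.95 CPM in HF against 9.12 and 10.8 CPM in LF. Use1 had polysome mRNA at 71.1 and 64.3 CPM in HF against 38.4 and 34.3 CPM in LF and total mRNA at 32.7 and 32.0 CPM in HF against 36.8 and 40.6 CPM in LF. Among contractile and laminin mRNAs, Acta2, Myl9, Lamb1, Lama4 and Lama2 had TE differences of 1.46, 1.304, 1.12, 0.83 and 0.79. Pecam1, an endothelial gene at only 0.725 to 2.59 CPM, was at 1.11 (adjusted p = 0.309). Vwf, also endothelial and at 0.116 to 1.29 CPM, lay on the other side at -1.46 (adjusted p = 0.368). Rps19, Mrpl52 and Ndufs8, of the cytosolic ribosome, the mitochondrial ribosome and complex I, were at 0.95, 1.34 and 1.04. The metallothioneins Mt3 and Mt2 were at 1.33 and 1.11, and the p53 targets Bax, Aen and Plk3 at 0.89, 0.50 and 1.14. Klf4, Irs1, Nsun4 and the noncoding Zfas1 were at 1.00, 0.75, 0.49 and 0.99. Gm6851 had a fitted TE change of 15.19, which depends on how its counts of 0 enter the fit.

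In the other 16 genes polysome mRNA was lower and total mRNA higher in HF. Gm26880, which was called, had a TE change of -1.03. D030056L22Rik had polysome mRNA at 25.9 and 24.3 CPM in HF against 48.8 and 47.8 CPM in LF and total mRNA at 28.4 and 27.999 CPM in HF against 24.6 and 25.7 CPM in LF (TE difference -1.11). Sox21, Vim and Slc1a2, of neural stem cells and astrocytes, had TE differences of -1.28, -0.50 and -0.67. Hmgcs1 and Sqle of sterol synthesis were at -0.87 and -0.56, Fzd7 and Fgfr2, both receptors, at -0.56 and -0.55, and the G protein gamma subunits Gng11 and Gng10 at -1.28 and -1.12. Pcna, Fos, Selenof and the endothelial Vwf were at -0.65, -1.28, -0.79 and -1.46. Gm10273 had a fitted TE difference of -10.9, which depends on how its total counts of 0 in LF enter the fit. The opposite direction of the 2 fractions was read from the values of the libraries, and the TE test is the test of their difference.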

How the results depend on the processing

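The number of TE calls, 14 with 11 higher in HF (78.6%), depended on the processing. It was 39 with RLE size factors (87.2% higher), 31 with upper-quartile scaling, 187 with no filter on low counts (63.6% higher), 48 at a mean CPM of at least 5 (66.7%), 719 with DESeq2 (62.3%), 21 with limma voom (66.7%), 5 with sample quality weights (40.0%), 24 with a length trend removed and 1060 with a GC trend removed (55.5%). It was 2 with only the 8 HF and LF libraries, all higher, with 1404 genes at an unadjusted p under 0.05. Alternatives added after seeing the data gave 336 calls with the GC trend removed in those 8 libraries, 2760 without polysome LF replicate 2 and 2258 without replicate 1 with the GC trend removed, and 226 at an adjusted p under 0.1. Leaving out 1 library gave 2 to 5576 calls, with 5576 without polysome LF replicate 1, 2550 without polysome LF replicate 2 and 2 to 6 without any other. The cause was not tested. Of the 14, 13 were called by DESeq2 and 13 by voom. Polysome mRNA gave 2 calls and total mRNA 249 when each fraction was fitted alone, against 1320 and 0. Same-numbered total and polysome libraries deviated together with correlations of -0.18 in LF, 0.12 in MF and 0.07 in HF, so the numbers were not taken as pairs; the replicate block gave 3 calls, all higher, and 913 with the GC trend removed. No gene named by a rule other than list membership turned its direction as a call. Genes named by list membership alone were not checked for this. Of 39 list medians, 23 kept their sign under every alternative, including both ribosomal lists, the amino acid response, mitosis and sterol lists; 3 of the 21 beyond 0.2 did not, namely PI3K, astrocyte and replication-dependent histone genes. No endothelial or ependymal gene reached a mean CPM of 5. Depth limits the genes with few counts, such as Gm6851 and Gm10273.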

Other observations

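Proteasome mRNAs, which encode the particle that degrades ubiquitin-marked proteins, numbered 34 among the genes tested. Of these, 6 were higher and 0 lower at an unadjusted p under 0.05 (all genes, 7.36% higher and 7.29% lower), and the median difference was 0.13. Psmb5, a catalytic subunit, had polysome mRNA at 312 and 332 CPM in HF against 157 and 117 CPM in LF, with no overlap (TE difference 1.19 ± 0.205 (SE), adjusted p = 0.0563). Psmb3, Psmd4 and Psmb6 had TE differences of 0.73, 0.72 and 0.74 (adjusted p = 0.108, 0.113 and 0.128). None passed. The list median was 0.15 without polysome LF replicate 2 and 0.08 without replicate 1. Selenoprotein mRNAs, which recode a stop codon as selenocysteine, went both ways. At that level of p, 4 of 19 were higher and 2 lower (all genes, 7.36% and 7.29%). Selenow had polysome mRNA at 95.4 and 92.6 CPM in HF against 55.4 and 40.3 CPM in LF (TE difference 1.02 ± 0.207 (SE), adjusted p = 0.0786), and Selenof of the endoplasmic reticulum at 418 and 373 CPM in HF against 518 and 825 CPM in LF (TE difference -0.79 ± 0.258 (SE), adjusted p = 0.19).

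Of 20 p53 target mRNAs, 5 were higher and 0 lower at an unadjusted p under 0.05 (all genes, 7.36% and 7.29%). Bax, which opens the mitochondrial outer membrane in apoptosis, had polysome mRNA at 228 and 193 CPM in HF against 142 and 105 CPM in LF (TE difference 0.89 ± 0.210 (SE), adjusted p = 0.0994). Of 20 mRNAs of endoplasmic reticulum chaperones and the unfolded protein response, 4 were higher and 1 lower (all genes, 7.36% and 7.29%). Herpud1, of protein degradation at that membrane, had a TE difference of 0.74 ± 0.197 (SE), and Manf, a secreted protein of the same response, one of -0.55 ± 0.164 (SE), with adjusted p-values of 0.125 and 0.166. Nuclear long noncoding RNAs, which are not translated, had 0 of 12 past that level in either direction, with Malat1 at 0.33 ± 0.501 (SE) and Miat at -1.36 ± 0.717 (SE) (adjusted p = 0.827 and 0.425). Of the immediate early genes, Fos and Junb had TE differences of -1.28 ± 0.463 (SE) and 1.65 ± 0.660 (SE) (adjusted p = 0.24 and 0.286).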
